A study of Homo sapiens with 6 samples.

Results

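Integrins are the receptors that hold a kidney tubule cell to its basement membrane, and laminins and fibronectin are matrix proteins that they grip. The 31 genes described here are 20 integrin subunits, 10 laminin chains and fibronectin, chosen by gene symbol out of the 58825 genes of a deposited RNA-seq table. Their RNA was compared between Control HK-2 cells and HK-2 cells given OX-LDL, which is low-density lipoprotein that has been oxidized. HK-2 cells are an immortalized epithelial line that was made from the proximal tubule of a human kidney. The study used OX-LDL on this line as a culture model of lipid injury to the tubule. There were 3 Control libraries, labelled untreated and with no time given, and 3 OX-LDL libraries from cells that received 25 μg/ml for 48 h. The study's methods describe a period of serum starvation before the treatment, and the labels do not say whether Control cells went through it too. Nothing in the labels says that the libraries came from separately grown cultures, so a p-value here measures only the spread between these libraries.

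An integrin is a pair made of an alpha and a beta subunit, and the pairing decides which matrix protein is bound. The alpha-v subunit and the fibronectin receptor subunit ITGA5 recognize a short arginine-glycine-aspartate (RGD) motif in fibronectin, whereas ITGA3, ITGA6 and ITGA7 bind laminins, and ITGA1, ITGA2, ITGA10 and ITGA11 bind collagens. A laminin is a trimer of an alpha, a beta and a gamma chain, and sheets of laminin form the scaffold of the basement membrane under the tubule.

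The part of fibronectin that RGD-binding integrins hold is shown first, because it joins the ligand to these receptors. In the reference coding sequence of FN1 (GENCODE release 29), the RGD motif begins at codon 1524, and the capitals mark its codons, with coding bases 4543 to 4605 of 6528 shown.
FN1 coding stretch: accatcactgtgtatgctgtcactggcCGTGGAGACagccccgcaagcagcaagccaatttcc
The same in-frame motif was also found in the coding sequences of 5 of the 10 laminin chains and 7 integrin subunits. A match to these letters is a description of the sequence and does not show that an integrin binds there.

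The RNA of FN1 was by far the most plentiful among the members, and the 250 bases before its start are given as the reference shows them. The window lies at chr2:215436069-215436318 on the minus strand (RefSeq, GRCh38.p14). Capitals mark TGACGTCA, the letters of a cyclic AMP response element, then CCAAT, and then runs of GGGCGG, the letters of a GC box.
FN1 upstream window: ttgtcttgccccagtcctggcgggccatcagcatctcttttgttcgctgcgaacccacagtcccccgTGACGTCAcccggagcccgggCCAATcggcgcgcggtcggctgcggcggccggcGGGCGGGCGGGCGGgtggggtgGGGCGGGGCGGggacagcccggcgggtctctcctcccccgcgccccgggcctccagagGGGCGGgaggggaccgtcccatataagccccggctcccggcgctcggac
The window of ITGA4, the member with the next to largest fitted rise, lies at chr2:181457136-181457385 on the plus strand of the same build. It held none of these letters. The window ends at the RefSeq start, and the deposited coordinates put the start of ITGA4 inside it, at 181457202.
ITGA4 upstream window: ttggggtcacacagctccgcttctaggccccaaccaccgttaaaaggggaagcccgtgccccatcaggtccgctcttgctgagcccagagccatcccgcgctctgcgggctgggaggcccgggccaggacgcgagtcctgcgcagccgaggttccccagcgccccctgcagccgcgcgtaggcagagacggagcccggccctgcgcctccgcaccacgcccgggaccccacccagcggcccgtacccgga
The FN1 window held TGACGTCA 183 bases and CCAAT 162 bases before the start, together with 6 copies of GGGCGG when overlaps are counted, and its GC content was 76.4%. TGACGTCA was found on either strand in 1.65% of the 35116 promoters of the reference table and in 1 of the 23 members with an entry there, which was FN1. CCAAT was found in 32.0% of all promoters and in 4 of the 23 members, and GGGCGG in 42.6% and in 14 of the 23. TATAAA was found in 10.7% of all promoters, and 2 of the 23 members held it. The percentages count promoters, and the 23 members had 30 of them, 17 with GGGCGG. A member was counted if any of its promoters held the letters. These are letter matches in the reference and not measured binding. The promoters of ITGA3, ITGB3, ITGB4, ITGB2, ITGA7, ITGA9, LAMA1 and LAMC3 were not analysed here.

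Library totals ranged from 62561347 to 76797607 deposited counts, and a read pair appeared as about 4 of these counts. Levels are given as FPKM, which counts fragments per kilobase of a transcript and corrects for library depth, so that they can be compared between genes. The line was checked against markers of its labelled type. Kidney epithelial genes were present, with KRT8, a keratin, at 37.5 ± 6.50 FPKM in Control and 65.4 ± 4.96 in OX-LDL, and EPCAM, an epithelial adhesion molecule, at 51.2 ± 3.68 and 53.1 ± 3.13 (SD, n = 3). PAX8, a kidney transcription factor, was present but fell from 46.6 ± 12.9 to 19.4 ± 4.17 FPKM (log2 fold change -1.23, SE 0.24, edgeR adjusted p = 0.0182), and the related PAX2 was at 0.302 to 0.661 FPKM in Control and 0.225 to 0.268 in OX-LDL. The epithelial cadherin CDH1 was low in both groups, at 0.0968 ± 0.0611 and 0.106 ± 0.0400 FPKM. The proximal tubule endocytic receptor LRP2 had no count in any library, and the water channel AQP1 reached at most 0.142 FPKM. The summed level of the 15 kidney epithelial markers was 208 to 229 FPKM in Control and 245 to 292 in OX-LDL. For 7 fibroblast markers the sum was 10.3 to 12.3 and 9.15 to 14.3, nearly all of it LUM, and DCN had no count. For 5 endothelial markers it was 0.0376 to 0.122 and 0.0227 to 0.0833. In bulk RNA, fewer cells that express a gene and less RNA in each cell cannot be told apart.

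Differences were tested with edgeR over 19509 genes, those averaging at least 0.1 FPKM, and a gene was called when its p-value, adjusted over all of them by the Benjamini-Hochberg method, was under 0.05. In that test 15.3% of all genes were called, 7.91% as higher and 7.42% as lower in OX-LDL. Of the 31 members, 25 reached the minimum level in the mean and 6 of these 25 (24.0%) were called. The receptor subunits ITGB4, ITGA4 and ITGB2 and the laminin chain LAMA5 rose, and the subunits ITGB3 and ITGA3 fell. Among all genes averaging 1 FPKM or more, as 22 of the members did, 21.4% were called. In this fit the members' share was thus close to that of other genes of their level. Some other fits, given below, called a larger share of the members and others a smaller one. The median log2 fold change of OX-LDL over Control was 0.12 over the 25 members and -0.0043 over all genes tested.

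By library, 15 of the 25 tested members (60.0%) had OX-LDL values that did not overlap the Control values, 10 above and 5 below, where 37.2% of all tested genes did so. An unadjusted p under 0.05 was reached by 16 members, and by 30.4% of all tested genes. Neither share over all tested genes was matched for level. The calls depended on single libraries, for the members and over all genes. Without OX-LDL replicate 1 none of the 6 calls was left in edgeR, although 17 members then had an unadjusted p under 0.05, and there was 1 call without Control replicate 2 and likewise without OX-LDL replicate 3. Without OX-LDL replicate 2 there were 9. Calls over all genes fell as well, from 2991 to 1262 when OX-LDL replicate 1 was dropped. Dropping Control replicate 2 gave 1161, dropping OX-LDL replicate 3 gave 1163 and dropping OX-LDL replicate 2 gave 2943. The loss of calls was thus not limited to the members. The fitted direction of the 6 called members was the same in each of these fits. A p that misses the threshold does not show that values did not differ.

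**Figure D1:**
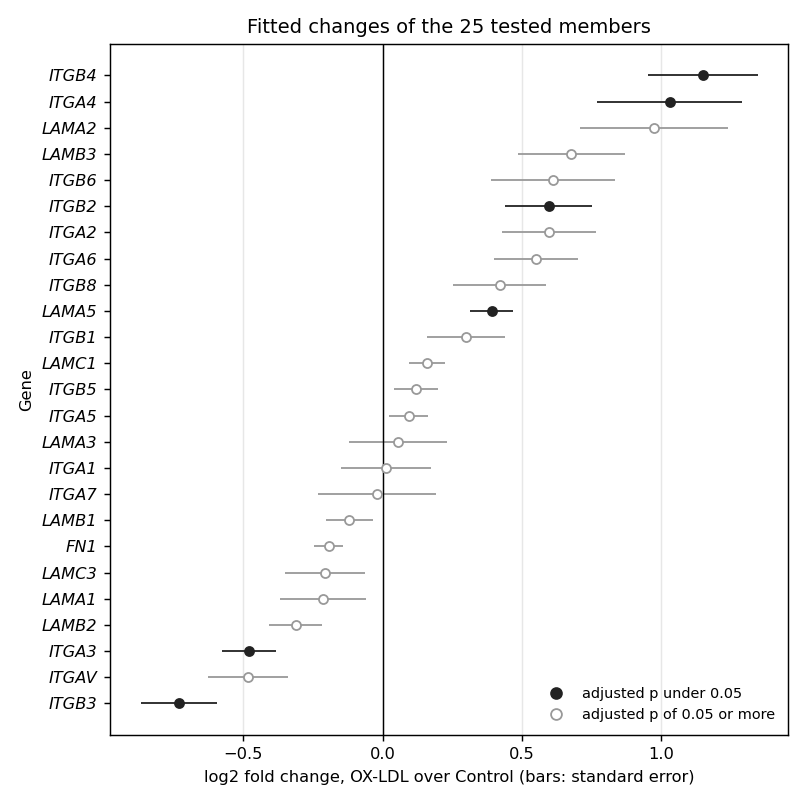
Fitted log2 fold change of OX-LDL over Control for the 25 tested members (horizontal axis, bars give the standard error), ordered by size, with called members as filled circles. The fitted values run from -0.73 for ITGB3 to 1.15 for ITGB4, and 4 filled circles lie to the right of 0 and 2 to the left.

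Among the alpha subunits, ITGAV and ITGA3 made up most of the RNA. ITGAV, the alpha-v subunit of the RGD receptors, accounted for 66.2% of the summed alpha subunit FPKM in Control and 61.8% in OX-LDL, and ITGA3, a laminin receptor subunit of epithelia, for 23.7% and 22.3%. ITGA5, the alpha subunit of the classical fibronectin receptor, followed with 6.37% and 8.98%. The sum over the 12 alpha subunits was 211, 199 and 206 FPKM in Control and 137, 168 and 156 in OX-LDL. Every OX-LDL library was thus below every Control library, with a ratio of the means of 0.747. With 3 libraries against 3, an exact permutation test of such a sum cannot give a p below 0.1.

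ITGA3, encoded at chr17:50055968-50090480 on the plus strand (GRCh38), was at 43.9, 55.4 and 46.1 FPKM in the Control libraries and at 35.0, 35.4 and 31.4 in the OX-LDL libraries. All OX-LDL values lay below the Control values. The mean was 48.5 ± 6.06 in Control and 33.9 ± 2.19 in OX-LDL (SD, n = 3), and the RNA fell by 0.48 on the log2 scale (SE 0.10, edgeR adjusted p = 0.0208), which is 1.40-fold lower. No other gene of the table overlaps ITGA3. Leaving out Control replicate 2 gave an adjusted p of 0.0511, leaving out OX-LDL replicate 1 gave 0.0687 and leaving out OX-LDL replicate 3 gave 0.0812, each above the threshold, and the call was kept in the 8 fits that used other tools, scalings or filters.

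ITGAV was at 146, 124 and 138 FPKM in Control and at 76.9, 109 and 99.6 in OX-LDL. The groups did not overlap, and OX-LDL replicate 1 was the lowest. The fitted log2 fold change was -0.48 (SE 0.14), as large as that of ITGA3, but with more spread between libraries the edgeR adjusted p was 0.0667. It ranged from 0.0445 to 0.164 when a library was left out, passing the threshold without OX-LDL replicate 2. ITGA5 was not called, with 13.5, 13.1 and 12.6 FPKM in Control and 14.2, 13.5 and 13.2 in OX-LDL (log2 fold change 0.09, SE 0.07, adjusted p = 0.419). ITGA8, which pairs with ITGB1 in another RGD receptor, had no count in any library.

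The laminin receptor subunit ITGA6, which joins ITGB4 in hemidesmosomes, was at 4.36, 3.98 and 5.67 FPKM in Control and at 6.35, 6.33 and 7.42 in OX-LDL. Each OX-LDL library was above all Control libraries, with a log2 fold change of 0.55 (SE 0.15) and an adjusted p of 0.0531. In contrast to ITGA3, its fitted value was positive. The ratio of ITGA3 to ITGA6, a measure chosen after the values were seen, was 10.1, 13.9 and 8.13 in Control and 5.51, 5.59 and 4.23 in OX-LDL, with no overlap. ITGA7, a muscle laminin receptor subunit, stayed near 0.427 ± 0.0669 FPKM in Control and 0.409 ± 0.0498 in OX-LDL. It lies across from BLOC1S1 on the other strand, which had at most 1881 counts where ITGA7 had at most 268, and the sources used here do not say whether reads were counted by strand.

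ITGA4, the alpha subunit of receptors for fibronectin and for the adhesion molecule VCAM1, is best known from leukocytes and is encoded at chr2:181457202-181527450 on the plus strand. It was low, at 0.529, 0.334 and 0.535 FPKM in Control and at 0.960, 0.707 and 1.14 in OX-LDL, from 320 to 1110 counts per library. The OX-LDL values were all above the Control values. It rose 2.04-fold (log2 fold change 1.03, SE 0.26, edgeR adjusted p = 0.0416). The call was kept without OX-LDL replicate 2 (0.0323) and lost when any other library was left out, with adjusted p-values of up to 0.127. It was also lost with no minimum level (0.0541) and in both limma fits (0.066 and 0.0631), and kept in 4 of the 7 fits with other tools, scalings or filters that tested it.

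Among the collagen receptor subunits, ITGA2 was at 0.828, 1.09 and 1.10 FPKM in Control and at 1.53, 1.26 and 1.67 in OX-LDL. The groups did not overlap, and the log2 fold change was 0.60 (SE 0.17, adjusted p = 0.0575). ITGA1 was at 1.05 ± 0.194 and 1.04 ± 0.0953 FPKM, and its fitted value of 0.01 changed sign under other settings. PELO lies within ITGA1 on the same strand and had more counts than it, so their reads may be hard to separate. ITGA10 had between 5 and 38 counts per library, and ITGA11 had at most 4. ITGA9, which like ITGA4 falls outside these classes, had between 10 and 24.

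**Figure D2:**
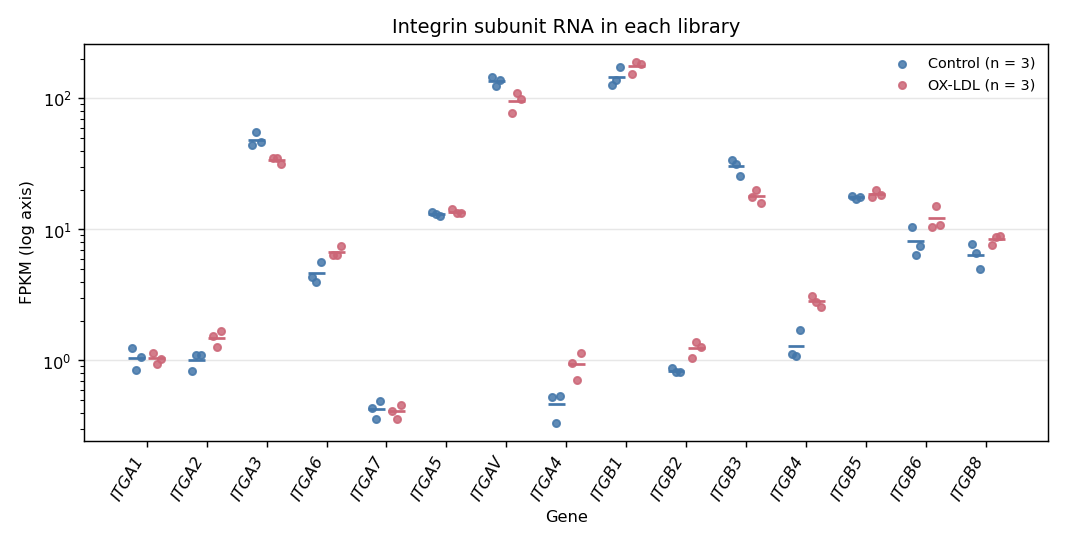
FPKM of the 15 tested integrin subunits in each library, on a log axis, with Control in blue, OX-LDL in red and short lines at the group means (n = 3 each). ITGAV and ITGB1 are the highest, and in OX-LDL the points of ITGA3, ITGAV and ITGB3 lie below all Control points while those of ITGA2, ITGA4, ITGA6, ITGB2, ITGB4 and ITGB6 lie above them.

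Of the beta subunits, ITGB1 supplied most of the RNA, 69.1% of the summed beta subunit FPKM in Control and 74.1% in OX-LDL. ITGB1 is the common partner of ITGA3, ITGA5 and many other alpha subunits. Its values were 126, 139 and 174 FPKM in Control and 154, 190 and 184 in OX-LDL. The groups overlapped, and its log2 fold change of 0.30 (SE 0.14) did not pass the test (adjusted p = 0.203). The sum over the 8 beta subunits was 198 to 232 FPKM in Control and 212 to 258 in OX-LDL, also with overlap. The ratio of ITGB1 to ITGAV, again chosen after the values were seen, was 0.859, 1.12 and 1.26 in Control and 2.00, 1.73 and 1.85 in OX-LDL.

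ITGB3 fell the most of the tested members. It is a partner of the alpha-v subunit in a receptor for vitronectin, fibronectin and other RGD ligands, and lies at chr17:47253846-47311816 on the plus strand. Its level was 33.9, 31.6 and 25.4 FPKM in Control and 17.8, 19.9 and 15.8 in OX-LDL, from a mean of 30.3 ± 4.40 to one of 17.9 ± 2.08 (SD, n = 3). The highest OX-LDL library was below the lowest Control library. The RNA fell by 0.73 on the log2 scale (SE 0.14, edgeR adjusted p = 0.0168), 1.66-fold lower. Here too the call ended when Control replicate 2 (adjusted p = 0.0624), or from the treated group replicate 1 (0.0623) or replicate 3 (0.0617), was left out, and it was kept in the 8 fits with other tools, scalings or filters.

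The fitted values of the other beta partners of the alpha-v subunit were positive and none was called by edgeR, although 2 of them, ITGB6 and ITGB8, had an unadjusted p under 0.05 and DESeq2 called ITGB6. ITGB6, an epithelial subunit whose receptor activates TGF-β, was at 10.4, 6.39 and 7.53 FPKM in Control and at 10.5, 15.1 and 10.8 in OX-LDL. Its groups were separated only narrowly, and the log2 fold change of 0.61 (SE 0.22) did not pass the test (adjusted p = 0.118). AC092153, an overlapping gene on the same strand, had 407 to 1424 counts where ITGB6 had 3299 to 7940. ITGB8, which forms another receptor for latent TGF-β, was at 6.43 ± 1.36 and 8.42 ± 0.765 FPKM (log2 fold change 0.42, SE 0.17, adjusted p = 0.142), and its groups overlapped. ITGB5, a vitronectin receptor subunit, was at 17.6 ± 0.554 and 18.7 ± 1.19 FPKM (0.12, SE 0.08, adjusted p = 0.364).

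As a share of the summed FPKM of these partners without ITGB1, a measure chosen after the values were seen, ITGB3 took 48.4%, 51.2% and 45.6% in the Control libraries and 33.3%, 31.2% and 29.2% in the OX-LDL libraries. The share of ITGB6 was 14.8%, 10.4% and 13.5% in Control and 19.6%, 23.7% and 20.0% in OX-LDL, and that of ITGB8 was 8.97% to 10.97% and 13.7% to 16.6%. Neither overlapped between the groups. The share of ITGB5 did overlap, at 28.5% ± 3.08 and 32.9% ± 1.41, as did the summed level of the partners, at 55.6 to 70.1 FPKM and 53.6 to 63.8.

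**Figure D3:**
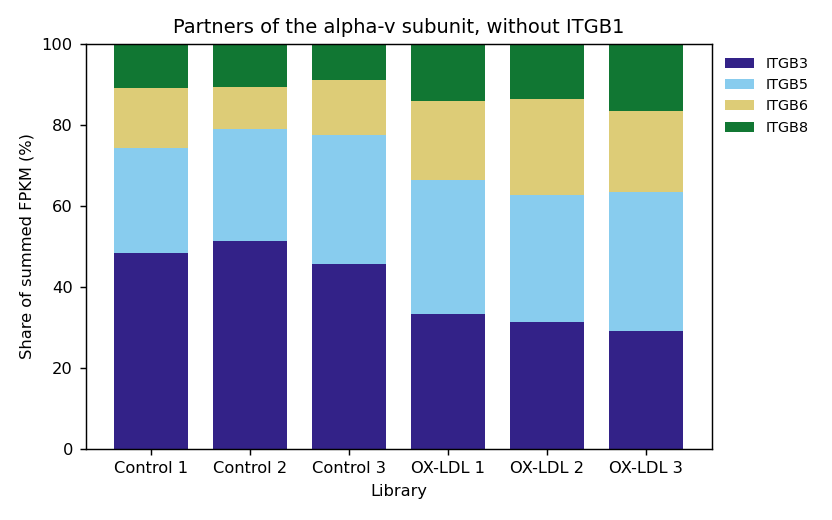
Share (%) of ITGB3, ITGB5, ITGB6 and ITGB8 in their summed FPKM, as stacked bars for each of the 6 libraries. The ITGB3 share is 45.6% to 51.2% in the Control libraries and 29.2% to 33.3% in the OX-LDL libraries.

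ITGB4 rose the most of the tested members. It pairs with ITGA6 and, through its long tail, ties the hemidesmosome to keratin filaments, and it lies at chr17:75721328-75757818 on the plus strand. It was at 1.13, 1.08 and 1.70 FPKM in Control and at 3.10, 2.81 and 2.58 in OX-LDL. All OX-LDL values were above all Control values, with means of 1.301 ± 0.345 and 2.83 ± 0.261 (SD, n = 3). The rise was 2.22-fold (log2 fold change 1.15, SE 0.20, edgeR adjusted p = 0.0131). Only the fit without OX-LDL replicate 1 lost the call (adjusted p = 0.0511, with 0.0073 the lowest of these fits), and the fitted value stayed between 1.02 and 1.39. GALK1 overlaps it on the other strand with 332 to 473 counts per library, where ITGB4 had 651 to 1728. ITGA6 remained more plentiful than its partner, 3.63 ± 0.269 times as high per length in Control and 2.39 ± 0.432 times in OX-LDL.

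ITGB2, the beta subunit of leukocyte integrins, lies at chr21:44885953-44931989 on the minus strand and was at 0.873, 0.812 and 0.815 FPKM in Control and at 1.05, 1.39 and 1.27 in OX-LDL. The groups did not overlap. It rose 1.51-fold (log2 fold change 0.60, SE 0.16, edgeR adjusted p = 0.0458), a call that was lost when any library was left out (adjusted p = 0.0516 to 0.14) and was kept in 4 of the 8 fits with other tools, scalings or filters (0.00376 to 0.0796). The summed level of 6 leukocyte markers, given beside it, was 0.257 to 0.375 FPKM in Control and 0.398 to 1.02 in OX-LDL. The general leukocyte gene PTPRC had no count in 5 of the libraries and 0.0105 FPKM in OX-LDL replicate 1, and MS4A1 had none. LAPTM5, a lysosomal protein of blood cells, was at 0 to 0.0695 FPKM in Control and 0.115 to 0.465 in OX-LDL (adjusted p = 0.136). It reached the minimum level for testing only through OX-LDL. The macrophage receptor CSF1R was at 0.00873 to 0.0245 and 0.0308 to 0.195. Both were thus higher in each OX-LDL library, as ITGB2 was, while CD14 overlapped between the groups. The part of other cells in the ITGB2 values was not tested. ITGB2-AS1, on the other strand, had 421, 496 and 15 counts in Control and 386, 347 and 380 in OX-LDL, where ITGB2 had 462 to 876. ITGB7, the partner of ITGA4 on gut-homing lymphocytes, had 4 counts in OX-LDL replicate 2 and none elsewhere.

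The summed level of the 10 laminin chains overlapped between the groups. It was 211, 211 and 230 FPKM in Control and 209, 229 and 218 in OX-LDL, and the ratio of the means was 1.01. The gamma chain LAMC1 and the beta chain LAMB1, the common chains of basement membrane laminins, made up 40.1% and 34.8% of it in Control and 43.5% and 31.2% in OX-LDL. LAMC1 was at 87.4, 83.5 and 90.5 FPKM in Control and 91.8, 97.4 and 96.0 in OX-LDL, without overlap, yet its log2 fold change of 0.16 (SE 0.06) was not called (adjusted p = 0.154). LAMB1 was at 75.7 ± 6.75 and 68.2 ± 3.90 FPKM with overlapping groups (-0.12, SE 0.09, adjusted p = 0.407).

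LAMA5, the alpha chain of the main laminins of mature kidney basement membranes, was the called laminin chain. It lies on the minus strand, at chr20:62307955-62351989 in the table. It was at 11.1, 10.5 and 9.64 FPKM in Control and at 13.2, 13.8 and 13.1 in OX-LDL. The OX-LDL libraries lay close together and above the Control libraries, with means of 10.4 ± 0.733 and 13.4 ± 0.373 (SD, n = 3). It rose 1.31-fold (log2 fold change 0.39, SE 0.08, edgeR adjusted p = 0.0202). It was not called when Control replicate 2 (adjusted p = 0.0719) or 3 (0.0521), or OX-LDL replicate 1 (0.0587) or 3 (0.0639), was left out, and the call was kept in the 8 fits with other tools, scalings or filters. ADRM1 overlaps it on the other strand, with 5111, 5087 and 4400 counts in Control and 6061, 5976 and 6469 in OX-LDL. LAMA5 had 11222 to 17883 counts, and those of ADRM1 also did not overlap between the groups. The part of ADRM1 reads in the LAMA5 values was not tested.

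LAMA1, the alpha chain typical of early tubule basement membranes, was at 13.9, 12.6 and 14.4 FPKM in Control and at 9.43, 14.1 and 10.9 in OX-LDL. The groups overlapped through OX-LDL replicate 2, and the log2 fold change of -0.21 (SE 0.15) did not pass the test (adjusted p = 0.405). The ratio of LAMA5 to LAMA1, chosen after the values were seen, was 0.801, 0.827 and 0.671 in Control and 1.40, 0.975 and 1.20 in OX-LDL, without overlap. By group mean, LAMA1 had the highest share of the laminin alpha chain FPKM in Control, 41.9% ± 1.12, and LAMA5 in OX-LDL, 39.96% ± 4.21, although in OX-LDL replicate 2 LAMA1 was still slightly above LAMA5. LAMA3 was at 8.21 ± 1.04 and 8.34 ± 1.96 FPKM and did not pass the test (adjusted p = 0.874). LAMA2, the alpha chain of muscle and nerve, was low, at 0.247, 0.325 and 0.286 FPKM in Control and 0.636, 0.358 and 0.655 in OX-LDL (0.97, SE 0.26, adjusted p = 0.0514). LAMA4, a vessel wall chain, had at most 12 counts per library.

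LAMB3, the beta chain of the laminin that anchors epithelial hemidesmosomes, was at 4.89, 5.28 and 5.99 FPKM in Control and at 10.2, 6.05 and 9.08 in OX-LDL. OX-LDL replicate 2 was just above the highest Control library, and the other OX-LDL libraries were well above it. The log2 fold change was 0.68 (SE 0.19) with an adjusted p of 0.0585, which became 0.00993 without OX-LDL replicate 2 and was up to 0.165 without another library.

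LAMB2, the beta chain of mature kidney basement membranes, was at 10.4, 12.9 and 11.7 FPKM in Control and at 9.13, 9.76 and 8.60 in OX-LDL. The OX-LDL values were below the Control values, and the log2 fold change was -0.31 (SE 0.09, adjusted p = 0.0706). LAMC3 was at 4.82 ± 0.296 and 4.08 ± 0.775 FPKM (-0.21, SE 0.14, adjusted p = 0.388).

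**Figure D4:**
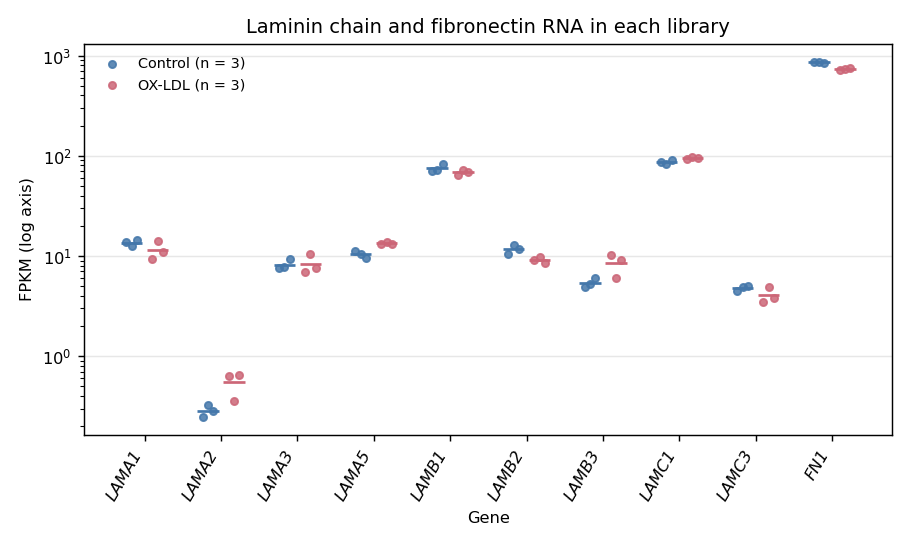
FPKM of the 9 tested laminin chains and of fibronectin in each library, on a log axis, with Control in blue, OX-LDL in red and short lines at the group means (n = 3 each). FN1 lies between 712 and 868 FPKM. The OX-LDL points of LAMA2, LAMA5, LAMB3 and LAMC1 lie above and those of FN1 and LAMB2 below all Control points.

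Fibronectin, the matrix protein of wound healing and of scarring kidneys, had the largest count of all genes in each of the 6 libraries. FN1 lies at chr2:215360440-215436073 on the minus strand and took 1.70% to 1.76% of all counts in Control and 1.45% to 1.52% in OX-LDL. Its level was 868, 863 and 841 FPKM in Control and 712, 741 and 748 in OX-LDL. The replicates were tight, and each OX-LDL library was below every Control library. The means were 857 ± 14.5 and 734 ± 19.1 (SD, n = 3), and the fitted log2 fold change of -0.19 (SE 0.05, fold 0.875) came with an edgeR adjusted p of 0.0509, just above the threshold. Of 8 fits with other tools, scalings or filters, 5 called it, with adjusted p-values from 0.0227 to 0.0829 over the 8, and none of the fits that left out a library did (0.0675 to 0.157). No other gene of the table overlaps FN1. The fitted value was negative in all of these fits. By real-time PCR, the study reported the other direction, a significant rise of fibronectin RNA in HK-2 cells given OX-LDL. The reason for this difference was not tested.

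A further 7 members had an adjusted p between 0.0509 and 0.0706, with no overlap between their groups. ITGA2, ITGA6, LAMA2 and LAMB3 had higher values in OX-LDL, and ITGAV, LAMB2 and FN1 had lower ones. DESeq2, which was run as an alternative, called 13 of the 25 tested members, 9 higher and 4 lower. With a minimum of 1 FPKM, edgeR called 10 of the 22 members that reached it. Calls over all genes were also more frequent in these fits, 26.4% of those tested by DESeq2 and 25.7% with that minimum. In both fits the share of the members was the larger one, but the DESeq2 share over all genes was not matched for level.

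The cytoplasmic partners of integrins were looked at from lists of related genes. Of 62 such genes, 51 were tested and 10 were called (19.6%, against 15.3% of all genes and 21.4% of those averaging 1 FPKM or more, as 45 of the 62 did), each of them higher in OX-LDL, and DESeq2 called 16. Their median log2 fold change was 0.06. Among 30 adaptors of the integrin tail and of focal adhesions, 26 were tested and 4 were called. TNS1, which links integrin tails to actin, rose from 1.02 ± 0.0344 to 1.97 ± 0.141 FPKM (log2 fold change 0.99, SE 0.10, adjusted p = 0.00235). The focal adhesion scaffold PXN rose from 18.2 ± 0.685 to 28.6 ± 2.78 FPKM (0.68, SE 0.09, adjusted p = 0.00601), and VCL, which binds talin and actin, rose from 42.3 ± 2.73 to 65.3 ± 6.06 FPKM (0.66, SE 0.09, adjusted p = 0.00749). FERMT1, an epithelial integrin activator, was the remaining call (0.79, SE 0.21, adjusted p = 0.0445). LIMS1 had 11.2 to 15.1 FPKM in Control and 6.36 to 10.4 in OX-LDL and was not called (adjusted p = 0.0544).

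Of 7 partners in hemidesmosomes and tetraspanin complexes, all tested, 3 were called. PLEC, the plakin that binds the ITGB4 tail, was at 9.41, 9.53 and 11.1 FPKM in Control and 19.2, 14.9 and 19.1 in OX-LDL. It rose 1.81-fold (log2 fold change 0.86, SE 0.12, adjusted p = 0.00734). The tetraspanin CD81 rose from 5.89 ± 0.465 to 8.95 ± 0.822 FPKM (0.63, SE 0.10, adjusted p = 0.0115), and the plakin DST rose from 7.52 ± 0.418 to 9.17 ± 0.696 (0.32, SE 0.08, adjusted p = 0.0477). COL17A1, a transmembrane collagen of hemidesmosomes, was low, at 0.0187 to 0.0781 FPKM in Control and at 0.147 to 0.167 in OX-LDL (adjusted p = 0.058). It reached the minimum level for testing only through OX-LDL, which limits what that p-value can show.

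Among 16 other matrix ligands, receptors and basement membrane proteins, 15 were tested and 2 were called. NTN4, a netrin that binds laminin networks, was at 6.74, 5.31 and 7.06 FPKM in Control and 15.0, 13.1 and 15.0 in OX-LDL. It rose 2.30-fold (log2 fold change 1.20, SE 0.13, adjusted p = 0.00358). SDC1, an epithelial syndecan that acts beside integrins, rose from 31.0 ± 2.13 to 47.7 ± 2.96 FPKM (0.65, SE 0.08, adjusted p = 0.00509). NPNT, a ligand of ITGA8 in the developing kidney, was at 52.1 to 55.5 FPKM in Control and 23.9 to 41.8 in OX-LDL and was not called (adjusted p = 0.0672). DAG1, a laminin receptor outside the integrin family, was at 22.2 FPKM in OX-LDL replicate 1 and between 2.08 and 3.08 in the other 5 libraries, so its log2 fold change of 1.70 (SE 0.90, adjusted p = 0.257) came from that library.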

How the data were processed

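Poly(A) RNA of HK-2 cells had been made into strand-marked libraries and sequenced as read pairs, 3 libraries per group, and samples were grouped by their labels. The authors deposited 1 table of 58825 genes with FPKM values, which they had scaled per kilobase and for library size, and estimated counts, which are whole numbers not scaled for library size. The submitters' processing notes name cutadapt 1.9, HISAT2 2.0.4, StringTie 1.3.4d, edgeR, DESeq2 and GRCh38, and whether counting used strand is not given in the sources used here. A count of 0, listed by the authors at a small FPKM, was set to 0 FPKM. The analysis plan named counts, and the estimated counts were used in the same test without rounding. There were 3.26 times as many genes at 4 counts as at the neighbouring counts, 2.95 times at 8 and 2.13 times at 12, so a read pair was taken as 4 counts and 12 counts per library as the limit of detection, and 4 members were at or under it in all libraries.

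The members and lists were chosen with earlier results of these data known. The main fit used edgeR 4.0.16 (R 4.3.3), with TMM factors, glmQLFit and glmQLFTest with group as the only term, over 19509 genes averaging at least 0.1 FPKM. SE is the log2 fold change over the square root of F. The fits were tested on simulated data. Members with an adjusted p under 0.05, or a fold over 1.5 and a mean level of 1 FPKM or more, were given in full, with FN1, ITGB1 and ITGAV, and the rest by level, with at most 5 genes of each related list by smallest p. Alternatives were DESeq2 1.42.0, RLE or no factors, no minimum or 1 FPKM, counts divided by 4, limma 3.58.1 on log2(FPKM + 0.1) and log2(FPKM + 1), a replicate block, and leaving out each library. The chi-square between libraries of a group was 14.3 to 24.8 for each gene, far above sampling noise, so none was deposited more than once. Coordinates are those of the table, and 81.2% of the 58552 gene IDs shared with GENCODE 29 had identical coordinates there. Promoters are from the RefSeq table (GRCh38.p14), in which 23 of the 31 members matched. Sums of FPKM over subunit classes were rescaled to TPM as a check. Annotation columns were not used, and some genes of the marker and related lists are not reported here.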

Additional observations from a re-analysis of the deposited data

How the results depend on the processing

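The number of called members, 6 by edgeR, was 13 by DESeq2 and 10 with a minimum of 1 FPKM, and lay between 0 and 9 when a library was left out. The number higher, 4, was 9 by DESeq2 and 2 with no minimum level and in both limma fits, and lay between 0 and 6 without a library. The number lower, 2, was 4 by DESeq2, with no normalization factor and with a minimum of 1 FPKM, and lay between 0 and 3 without a library. Calls in the related lists, 10, were 16 by DESeq2 and 7 to 12 without a library. Over all genes, 2991 calls became 4429 by DESeq2, 3152 with a minimum of 1 FPKM and 1161 to 2943 without a library. The cause was not tested.

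Pairing by replicate number was not seen in the values. Deviations from the group mean of libraries with the same number correlated by -0.0944, -0.0753 and -0.0391 over genes. No library correlated best with the one of its own number. With 3 libraries per group these correlations depend on each other, so they cannot show that the samples were unpaired. With the number as a replicate block, all genes gave 1636 calls and the members 5, ITGA6 gaining its call (adjusted p = 0.0393) and ITGB2 (0.116) and LAMA5 (0.0566) losing theirs.

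Sign changes were limited to fitted values near 0. That of ITGA1 was -0.013 with no normalization factor, -0.0044 and -0.0051 in the limma fits, and -0.13 to 0.16 when a library was left out. That of ITGA7 was -0.14 to 0.088 and that of LAMA3 was -0.15 to 0.19 when a library was left out. In all, the 25 members' fitted values kept direction and side of the threshold in 309 refits, lost a call in 30, gained one in 25 and changed sign in 8. Depth limits ITGA8, ITGA11, ITGB7 and LAMA4, which were at or under 12 counts in all libraries, and ITGA9 and ITGA10, which were close to it.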

Other observations

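Some genes that lie across members had counts of their own, which without knowledge of the strand setting cannot be told apart from reads of the member. The genes overlapping ITGA6 on the other strand included AC078883, with 54, 44 and 68 counts in Control and 172, 294 and 263 in OX-LDL. The groups did not overlap, and the counts were at most 6.51% of the highest ITGA6 count. Of the 31 members, 25 overlapped another gene of the table, 11 of them a gene on their own strand, and 6 overlapped none, among them ITGA3, ITGA4, LAMB2 and FN1.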
